A study of Homo sapiens with 9 samples.

Results

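ADAMTS20, PUS7L, IRAK4, TWF1 and TMEM117 lie next to each other on chromosome 12, and they are described here as 5 of the 60829 rows in the deposited gene table. PUS7L and IRAK4 were chosen by their difference between the clones compared here, and both are marked as significant and as top changed in the authors' deposited table. ADAMTS20, TWF1 and TMEM117 carry neither mark and were taken for their position. All 5 members passed the filter on low values, IRAK4 only through the knockout libraries, as each control library held 1 to 5 of its reads. Because the members' values were known when they were chosen, their differences are given as a description with no test.

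Total RNA, depleted of ribosomal RNA, was sequenced from H1 cells, an established human embryonic stem cell line kept in mTESR medium on vitronectin. The control clone (chrX-ctrl_H1, genotype WT) gave 4 libraries. The knockout clone (chrX-KO_H1), which lacks a HERVHlin locus on chromosome X, gave 5. HERVH is a family of endogenous retroviruses transcribed in human pluripotent cells, and the study asks which genes differ once this copy is gone. Each group is 1 clone sampled at successive passages, handled as technical replicates in the series design, so the spread below is between passages and what belongs to a clone cannot be told apart from what belongs to the knockout.

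IRAK4 is a serine/threonine kinase that MYD88 brings to activated Toll-like and interleukin-1 receptors, where it phosphorylates IRAK1 and starts signalling to NF-kappa-B. PUS7L is a homologue of PUS7, an enzyme that turns uridine into pseudouridine within RNA. TWF1 encodes twinfilin-1, which binds actin monomers and the proteins that cap actin filaments. TMEM117 encodes a membrane protein, and ADAMTS20 a secreted metalloproteinase of the family that cleaves versican. Genes that begin close together and run apart on opposite strands often share 1 promoter, usually rich in CpG.

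PUS7L and IRAK4 are arranged in this way. In GENCODE 29 (GRCh38), PUS7L runs on the minus strand from 43758817 down to 43718993 and IRAK4 on the plus strand from 43758944 to 43789543, with 126 bases between the starts. TWF1 (minus strand, 43793723 to 43806375) ends 4179 bases beyond the end of IRAK4, so that these genes run towards each other and their starts are 47431 bases apart. TMEM117 (plus strand, 43835967 to 44389762) begins 29591 bases past the start of TWF1. In RefSeq, TMEM117 spans 43795802 to 44399108 and overlaps TWF1 (43793723 to 43806317), so this gap holds for GENCODE 29 only. ADAMTS20 (minus strand, 43353866 to 43551921) lies 167071 bases from PUS7L on its other side.

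RefSeq promoter windows of 300 bases (GRCh38.p14) were matched for 4 of the 5 members. The IRAK4 window is shown because it holds the starts of both genes that differed, and the TWF1 window because that gene, the next in the row, overlapped between the clones. In the IRAK4 window (chr12:43758701-43759000, plus strand), the capitals mark the 126 bases between the PUS7L start on the left, whose transcript runs leftward, and the IRAK4 start on the right. In the TWF1 window (chr12:43806268-43806567, minus strand), the capitals mark the 50 bases from the RefSeq start onward.
IRAK4 and PUS7L: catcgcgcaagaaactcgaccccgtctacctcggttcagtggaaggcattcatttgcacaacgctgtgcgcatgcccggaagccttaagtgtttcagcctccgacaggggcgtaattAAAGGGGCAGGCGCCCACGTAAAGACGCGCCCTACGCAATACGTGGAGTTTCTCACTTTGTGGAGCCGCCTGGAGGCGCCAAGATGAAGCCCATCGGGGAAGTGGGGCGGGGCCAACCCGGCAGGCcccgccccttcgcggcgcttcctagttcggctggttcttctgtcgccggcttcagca
TWF1: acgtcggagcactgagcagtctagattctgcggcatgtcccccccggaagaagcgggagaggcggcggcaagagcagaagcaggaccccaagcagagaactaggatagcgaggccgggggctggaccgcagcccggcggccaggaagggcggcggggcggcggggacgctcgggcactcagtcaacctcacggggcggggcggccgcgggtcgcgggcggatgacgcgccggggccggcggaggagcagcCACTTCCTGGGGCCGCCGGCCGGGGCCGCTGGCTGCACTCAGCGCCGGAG

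The window shared by IRAK4 and PUS7L holds 28 CpG dinucleotides, 11 of them between the starts, and is 61.7% G or C. The TWF1 window holds 37, TMEM117 49 and ADAMTS20 26, against a median of 22 over 15193 promoters of coding genes. All 4 windows are therefore above the median, and the shared one is not extreme, since 64.0% of promoters hold fewer CpG. Motifs were searched as exact letters on both strands. In the shared window the GC box GGGCGG matched at 2 places, the ETS core CCGGAA at 1 and the NRF1 half-site GCGCATG at 1. None of these matches overlap each other. The same letters occur in 59.3%, 23.2% and 5.86% of all promoters of that length, and the NRF1 letters occur in none of the windows of TWF1, TMEM117 and ADAMTS20. The YY1 core AAGATGG (6.46% of promoters), CCAAT (36.6%), the cyclic AMP response element TGACGTCA (2.64%), the E-box CACGTG (8.90%) and TATAAA (9.58%) have no match in the shared window. A match is only a description of the letters.

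IRAK4 was close to absent from the control clone. In normalized counts, which are reads divided by 1 size factor per library, it stood at 2.13, 1.55, 1.82 and 4.52 in control replicates 1 to 4. These values rest on 2, 1, 2 and 5 reads, 10 in all, for which the exact 95% Poisson interval is 4.80 to 18.4 reads (counting error only). In knockout replicates 1 to 5 it stood at 78.6, 84.6, 87.3, 85.2 and 60.4, from 428 reads. The lowest knockout library was thus 13.4 times the highest control library, and the clones did not overlap.

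The ratio of the IRAK4 means, 79.2 ± 11.0 (SD, n = 5) to 2.50 ± 1.36 (SD, n = 4), was 31.6. On the log2(normalized count + 1) scale, which understates the change of genes with few reads, the log2 fold change was 4.57 (SE 0.31). The authors' deposited table gives 4.91 (SE 0.51), without an added 1. That table also marks IRAK4 for overlap with a LIN28 knockout and PUS7L under the heading "outlayers", by procedures not given in the sources used here.

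PUS7L, which starts beside IRAK4, was low in the control clone but not absent. It measured 19.1, 17.1, 9.12 and 34.3 normalized counts in control replicates 1 to 4, from 77 reads in all. The 5 knockout libraries held 329, 338, 392, 314 and 390 normalized counts, from 1929 reads. Again no library of one clone reached those of the other, and the lowest knockout library was 9.15 times the highest control library.

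The mean of PUS7L was 17.7 times higher in the knockout clone (log2 fold change 4.21, SE 0.31, and 4.13, SE 0.29, in the authors' deposited table). Passages of the knockout clone were close to each other for this gene, with a coefficient of variation of 10.3%, against 52.9% in the control clone. For IRAK4 the coefficients were 13.9% and 54.3%. The control value rests on 1 to 5 reads a library. Counting error alone is large at such numbers, so 54.3% is not a measure of variation between passages. Control 4 had the most reads of both genes among the control libraries, and control 3 the lowest PUS7L value.

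The ratio of PUS7L to IRAK4 reads was 9.0, 11.0, 5.0 and 7.6 in control replicates 1 to 4 and 4.18, 4.0, 4.49, 3.68 and 6.45 in knockout replicates 1 to 5. Control replicates 1, 2 and 4 lay above every knockout library, and control 3 lay above all but knockout 5. Each control ratio rests on 1 to 5 reads of IRAK4. Of the reads of PUS7L and IRAK4 together, 11.5% were IRAK4 in the control clone (exact Clopper-Pearson 95% interval 5.65% to 20.1%). In the knockout clone the share was 18.2% (interval 16.6% to 19.8%). The intervals cover counting error only, and they overlap. As the same contrast chose both genes, no test of the ratio was made.

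**Figure D1:**
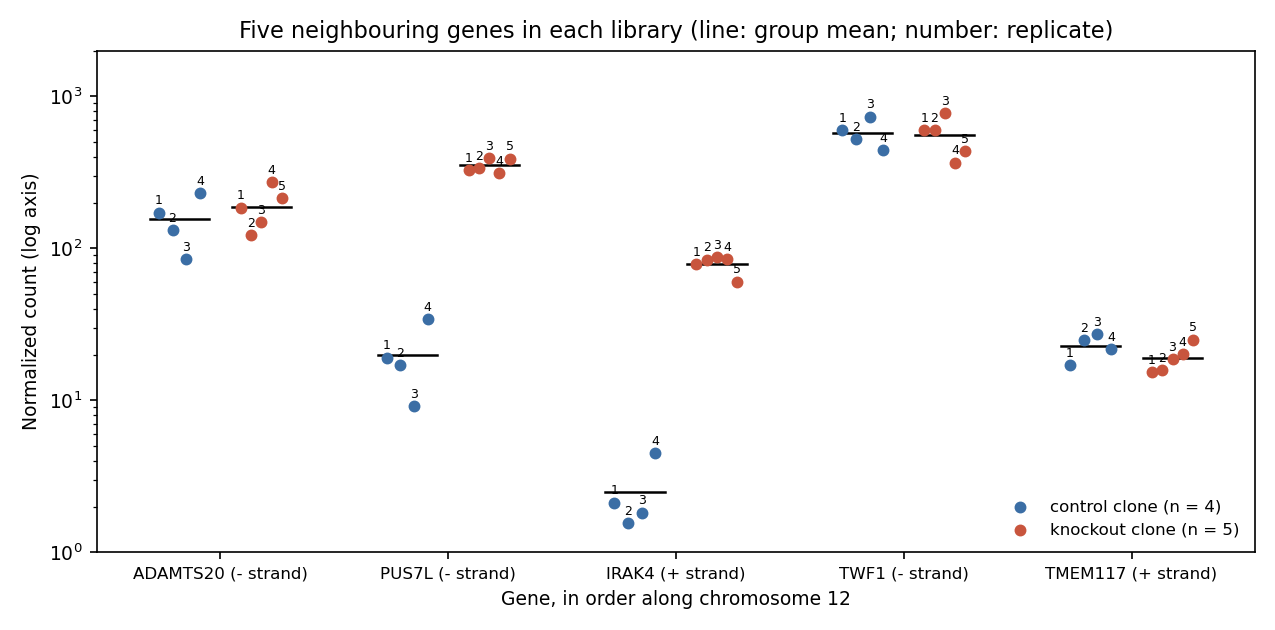
Normalized count (log axis) of each of the 5 genes in each library, in their order along chromosome 12. Points are libraries numbered by replicate, blue for the control clone (n = 4) and red for the knockout clone (n = 5), and lines are group means. The clones are apart for PUS7L (9.12 to 34.3 against 314 to 392) and IRAK4 (1.55 to 4.52 against 60.4 to 87.3) and overlap for the other genes.

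TWF1, whose end lies 4179 bases from that of IRAK4, overlapped between the clones. It measured 602, 524, 737 and 444 normalized counts in control replicates 1 to 4. In knockout replicates 1 to 5 it measured 602, 601, 776, 367 and 436. The means were 577 ± 125 (SD, n = 4) and 556 ± 160 (SD, n = 5), with a log2 fold change of -0.08 (SE 0.24). Its sign is not fixed, as it came to 0.06 without knockout 4, 0.05 without control 3 and 0.04 under quantile normalization.

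TMEM117 had few reads in every library. Its values were 17.0, 24.9, 27.3 and 21.7 normalized counts in control replicates 1 to 4 and 15.3, 15.8, 18.6, 20.2 and 25.1 in knockout replicates 1 to 5. The groups overlapped, with a log2 fold change of -0.25 (SE 0.27).

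ADAMTS20 varied more between passages than between clones. The control libraries held 172, 132, 84.8 and 231 normalized counts in replicates 1 to 4, and the knockout libraries 186, 122, 149, 272 and 215 in replicates 1 to 5. The log2 fold change was 0.32 (SE 0.32), and without control 3, the lowest library, it was 0.06. A difference of the size seen for PUS7L and IRAK4 was therefore present in none of these 3 genes.

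Per kilobase of annotated exon (all exons of a gene merged), the order of the levels differed between the clones. In the control clone TWF1 was highest at 147 ± 31.8 normalized counts per kilobase (SD, n = 4), followed by ADAMTS20 at 21.4 ± 8.57, TMEM117 at 6.60 ± 1.3, PUS7L at 1.42 ± 0.75 and IRAK4 at 0.44 ± 0.24. In the knockout clone TWF1 was at 141 ± 40.7 (SD, n = 5), ADAMTS20 at 26.1 ± 8.08, PUS7L at 25.1 ± 2.58, IRAK4 at 14.1 ± 1.95 and TMEM117 at 5.52 ± 1.15. PUS7L and IRAK4 thus stood below TMEM117 in the control clone and above it in the knockout clone. ADAMTS20 and PUS7L did not differ beyond their spread in the knockout clone.

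Over all 27777 rows tested with limma, 32 (0.115%) were called higher and 118 (0.425%) lower in the knockout clone at an adjusted p under 0.05, together 150 (0.54%). The share called in either direction was 0.544% with edgeR and 2.14% with DESeq2, and 8.63% of rows had an unadjusted limma p under 0.05. With the replicate number as a block, the number called was 43. Every knockout library lay above every control library in 1.35% of the tested rows, and in 2 of the 5 members. As that contrast chose PUS7L and IRAK4, nothing is read from their count. By size of log2 fold change, IRAK4 ranked 36 and PUS7L 57 among all rises, and the median over all tested rows was 0.01.

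Of the other genes around this row, 71 were in the table within 2 Mb of it and 34 were tested. One was called higher and 0 lower by limma, against the 0.54% of all tested rows. That row is RP11-210N13.1 (43736628 to 43741067, plus strand), a transcribed pseudogene that lies inside PUS7L on the opposite strand. It had 0 reads in control replicates 1, 2 and 3 and 7.23 normalized counts in control 4, from 8 reads. In knockout replicates 1 to 5 it measured 165, 104, 120, 171 and 111 normalized counts, all above the control libraries. This is a log2 fold change of 6.29 with an SE of 0.63. The row passed the filter only through the knockout libraries, where it is high, and lies inside PUS7L, which this contrast chose. Its call is therefore given as a description, and nothing is read from it. Without control 4, the only control library with reads, the log2 fold change was 7.05, and it was 4.45 with a pseudocount of 5. RP11-210N13.1 shares 80 exonic bases with PUS7L. The sources used here do not say if reads were assigned by strand, so RNA of PUS7L and of this pseudogene cannot be told apart in these bases. Its other bases also lie inside the PUS7L gene, and whether their reads come from PUS7L RNA was not tested.

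The coding genes around the row were near the middle of all genes. Of 13 such genes within 2 Mb, 11 were tested, and limma, edgeR and DESeq2 called 0, which at the shares over all rows says nothing about this group (with no adjustment, 1 passed 0.05 in limma, SLC38A2 at -0.53). Their median log2 fold change was -0.01, and they ran from -0.53 to 0.28. PRICKLE1, a planar cell polarity protein, averaged 163 normalized counts in control libraries and 160 in knockout libraries, with a log2 fold change of -0.05 (SE 0.29). NELL2, a secreted glycoprotein of the nervous system, measured 661 ± 58.7 and 556 ± 36.0 (-0.25, SE 0.12, limma adjusted p = 0.62). ANO6, a calcium-activated lipid scramblase, stood at -0.21 (SE 0.15), and PPHLN1, a periphilin that acts with the HUSH silencing complex, at 0.10 (SE 0.14).

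Among noncoding rows, RP11-46I1.1, which lies inside TMEM117 on the opposite strand, had the next smallest p and was picked out after its value was seen. Its mean was 3.47 ± 1.24 normalized counts in the control libraries (SD, n = 4) and 15.2 ± 4.07 in knockout libraries (SD, n = 5). The log2 fold change of 1.85 (SE 0.42) did not pass with limma (adjusted p = 0.13) and passed with DESeq2 (adjusted p = 0.022). On the whole of chromosome 12 outside the 5 members, 1459 rows were tested. Of these, 3 were called higher and 2 lower by limma, against 0.115% and 0.425% of all tested rows. The median log2 fold change of the 1459 rows was 0.04.

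**Figure D2:**
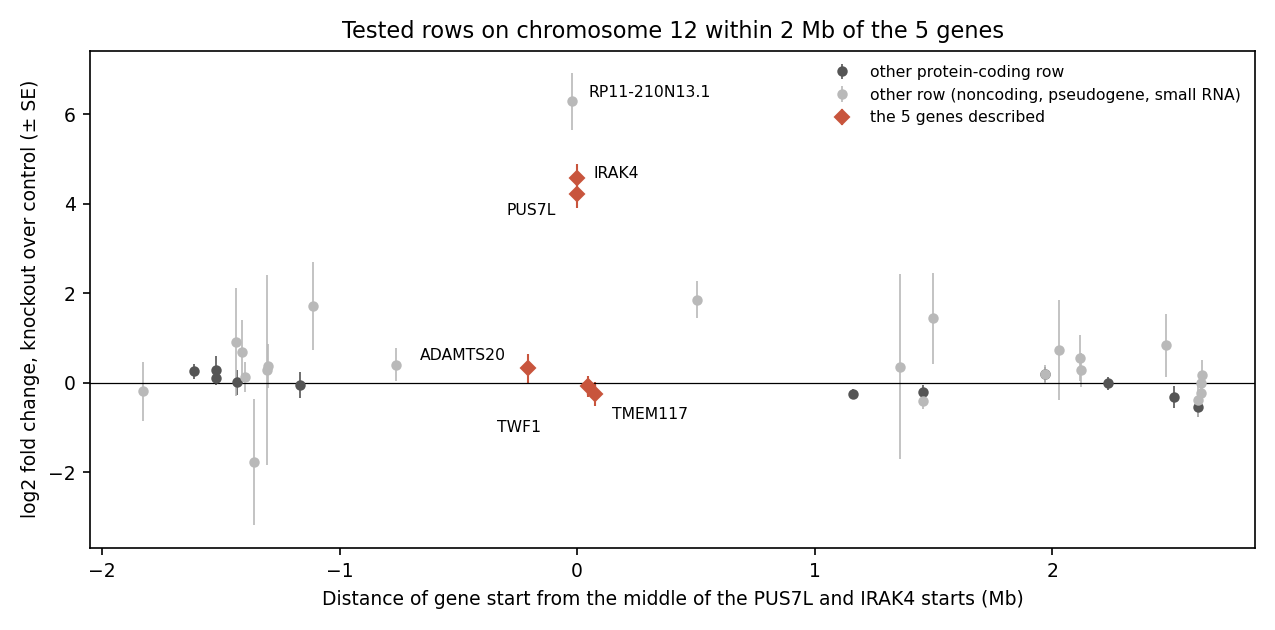
Log2 fold change (knockout over control, ± SE) of each tested row within 2 Mb of the span of the 5 genes against the distance of its start from the middle of the PUS7L and IRAK4 starts. Red diamonds are the 5 genes, dark points other coding genes and pale points other rows. PUS7L (4.21), IRAK4 (4.57) and RP11-210N13.1 (6.29) stand apart, while the other coding genes lie between -0.53 and 0.28.

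The arrangement of PUS7L and IRAK4 was set beside that of other coding genes that begin on opposite strands within 1000 bases and run apart. Of 747 such pairs in the annotation, 637 others had both genes tested. In these, limma called both genes in 0 pairs, 1 gene in 2 pairs and none in 635, and DESeq2 called both in 1. Limma called 0.54% and DESeq2 2.14% of all rows, so these counts say nothing about such pairs. The log2 fold changes had the same sign in 367 pairs (57.6%), a share that was not computed for genes outside such pairs. The median difference between the genes of a pair was 0.20 on the log2 scale, against 0.36 for PUS7L and IRAK4.

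FOXL2, a forkhead transcription factor, and its neighbour FOXL2NB were the pair that DESeq2 called. On the limma scale they stood at -2.07 (adjusted p = 0.17) and -1.83 (adjusted p = 0.024), both lower in the knockout clone. In the other pair with a call by limma, PLPP3 stood at -1.03 (limma adjusted p = 0.021) and its partner PRKAA2 at 0.40 (0.74). No other pair had both genes as far from 0 as PUS7L and IRAK4. As these were chosen for their size, no test of that difference was made.

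**Figure D3:**
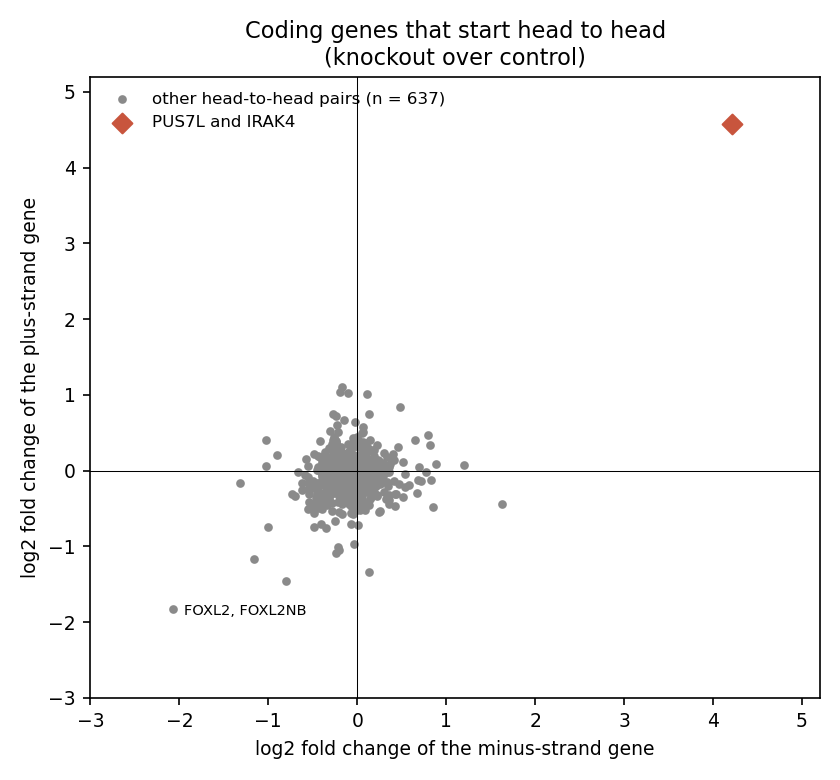
Log2 fold changes (knockout over control) of the minus-strand gene (horizontal) and the plus-strand gene (vertical) of coding pairs whose starts lie within 1000 bases. Grey points are 637 other pairs and the red diamond is PUS7L (4.21) with IRAK4 (4.57). FOXL2 with FOXL2NB, at -2.07 and -1.83, is the pair farthest out in the other direction.

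The rows most like IRAK4 over the 9 libraries were named by the Pearson correlation of log2 values among 16115 named rows whose mean normalized count was 50 or more. They were DNAJC15 on chromosome 13 (r = 0.99), PUS7L (0.99), RP11-210N13.1 (0.99), RNY4P24 on chromosome 13 (0.98) and CAT on chromosome 11 (0.98). DNAJC15 encodes a mitochondrial cochaperone and CAT the enzyme catalase. For PUS7L they were DNAJC15 (0.99), RP11-210N13.1 (0.98), TENM4 on chromosome 11 (0.98), ZNF439 on chromosome 19 (0.98) and RNY4P24 (0.98). These values mostly restate that the clones differ, since every one of these rows was higher in all knockout libraries.

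Control 4 was the library where PUS7L, IRAK4 and RP11-210N13.1 had their highest control values. RNY4P24 had 0 reads in each control library, and DNAJC15 had 1.81 normalized counts in control 4 and 1.55 in control 2. As 1 read is 0.90 normalized counts in control 4 and 1.55 in control 2, these values rest on very few reads. The part of control 4 in the spread of these genes was not tested further.

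With the clone means removed, the correlation of PUS7L and IRAK4 over the 9 libraries was 0.66, no higher than the 0.69 of PUS7L and ADAMTS20, and IRAK4 rests on 1 to 5 reads in each control library. The rows most like PUS7L on this measure were CTD-3080F16.3 (r = 0.96), NAALADL2 (0.95) and RP11-562F9.4 (0.95), and those most like IRAK4 were MIR8065, a Y_RNA row and SNORA3B (0.94, 0.93 and 0.93). For TWF1 they were SLC16A1, a lactate transporter (0.99), WDR25 (0.99) and METTL18, a histidine methyltransferase (0.99). Over the 9 libraries with the means left in, the rows most like TWF1 included METTL18 (0.98), MED9 (0.97), DMAC1 (0.96) and MAL2 (0.96). The rows ranked by likeness were the highest of 16115 compared over 9 libraries, and such a search finds high values by itself. MIR8065, for instance, had 0 in control replicates 1, 2 and 3 and 229 normalized counts in control 4.

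TWF1 and ADAMTS20 moved in opposite ways between passages (r = -0.80 with the clone means removed, n = 9 libraries). In the control clone TWF1 was highest in replicate 3 and lowest in replicate 4, and ADAMTS20 the reverse. In the knockout clone TWF1 was again highest in replicate 3 and lowest in replicate 4, and ADAMTS20 was highest in replicate 4 but lowest in replicate 2 (122), below replicate 3 (149). Protein-coding rows took 50.8% of the reads of control 3 and 42.3% of control 4, and 42.1% of knockout 3 and 43.5% of knockout 4. The part of library make-up in these values was not tested.

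The median log2 fold change of 31 tested genes, of 46 listed for Toll-like and interleukin-1 receptor signalling, was -0.11, against 0.01 over all rows. Limma, edgeR and DESeq2 called 0 of the 31, against 0.54%, 0.544% and 2.14% of all rows, so that a count of 0 in a list of this size is near the background. With no adjustment limma had 0 as well, against 8.63%. The receptors TLR1, TLR4, TLR6, TLR7, TLR8, TLR9 and TLR10 had too few reads to pass the filter. The adaptor MYD88 averaged 134 ± 46.5 normalized counts in control libraries (SD, n = 4) and 97.1 ± 21.3 in the knockout clone (SD, n = 5), with a log2 fold change of -0.43 (SE 0.25, limma adjusted p = 0.69). IRAK1, the kinase that IRAK4 phosphorylates, measured 292 ± 124 and 187 ± 50.4 (-0.60, limma adjusted p = 0.63). UBE2N and UBE2V1, which build ubiquitin chains with TRAF6, stood at -0.10 and -0.07.

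Downstream of the pathway, NFKBIA, the inhibitor of NF-kappa-B that NF-kappa-B itself induces, stood at -0.06 (279 ± 103 normalized counts in control libraries, SD, n = 4, and 262 ± 75.5 in knockout libraries, SD, n = 5). CXCL8, an NF-kappa-B target, was too low to test, at means of 1.3 and 1.31 normalized counts. Both were picked out after their values were seen.

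The 15 listed pseudouridine synthases and their partners, all of them tested, had a median log2 fold change of -0.23 and a range from -0.56 to -0.02. Limma, edgeR and DESeq2 called 0 (in limma 0 also with no adjustment), and at 0.54% of all rows called by limma this count says nothing about the group. PUS7, the close relative of PUS7L and named here for that reason, averaged 720 ± 148 normalized counts in control libraries (SD, n = 4) and 687 ± 74.9 in knockout libraries (SD, n = 5), a log2 fold change of -0.05 (SE 0.17). PUS3, which modifies transfer RNA, stood at -0.52 (limma adjusted p = 0.65). GAR1, NHP2 and NOP10, the proteins that work with the synthase DKC1 on small nucleolar RNA guides, stood at -0.56, -0.40 and -0.29.

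Genes of actin monomer binding and filament capping, listed for TWF1, were all 25 tested, and their log2 fold changes had a median of -0.10. Limma, edgeR and DESeq2 called 0 (in limma 1 rise passed 0.05 with no adjustment, TMSB15A), which is again near the 0.54% called by limma over all rows. TMSB15A, a thymosin that binds actin monomers, averaged 890 ± 380 normalized counts in control libraries (SD, n = 4) and 1364 ± 332 in the knockout clone (SD, n = 5), with a log2 fold change of 0.69 (limma adjusted p = 0.57). COTL1, a coactosin, stood at -0.48, the thymosin TMSB4X at 0.26 and ACTB, the cytoplasmic actin, at -0.29. TWF2, the paralogue of TWF1 and named as such, measured 505 ± 259 and 336 ± 57.8 (-0.47, limma adjusted p = 0.73).

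In the ADAMTS family list, 24 of 29 genes were tested. Besides ADAMTS genes it holds ADAMTSL genes, PAPLN, the proteoglycans VCAN, ACAN, BCAN and NCAN, and TIMP3. Limma and edgeR called 0. DESeq2 called 3 lower, against 449 (1.62%) lower among all 27752 rows it gave an adjusted p. With no adjustment 5 were lower and 0 higher in limma, against 5.05% lower over all rows. The median log2 fold change was -0.15. ADAMTS16 averaged 123 ± 29.6 normalized counts in control libraries (SD, n = 4) and 48.8 ± 15.8 in the knockout clone (SD, n = 5), with a log2 fold change of -1.33 (limma adjusted p = 0.075). It passed with limma without knockout 1 (-1.49, adjusted p = 0.048). The proteoglycans VCAN, a known substrate of this family, and BCAN stood at -0.93 (limma adjusted p = 0.17) and -1.43 (0.13). These were the 3 genes that DESeq2 called lower (adjusted p = 0.0023, 0.0076 and 0.017). ADAMTS19 stood at 0.14.

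**Figure D4:**
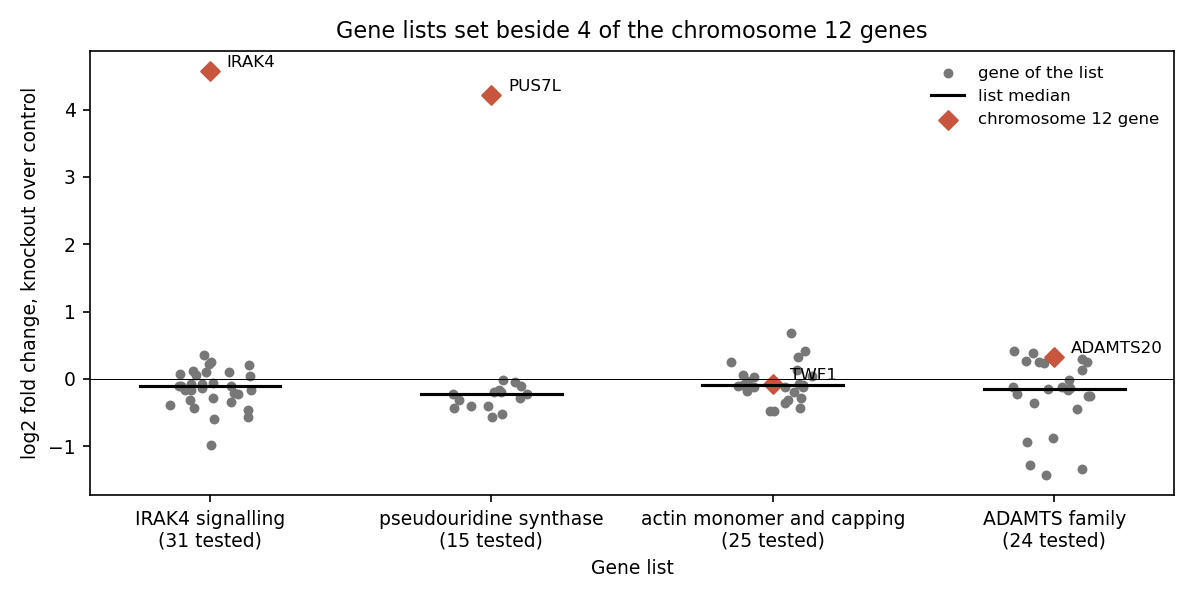
Log2 fold change (knockout over control) of each tested gene of 4 lists, with the chromosome 12 gene that each list was set beside as a red diamond. Lines are list medians (-0.11, -0.23, -0.10 and -0.15). IRAK4 (4.57) and PUS7L (4.21) lie far above their lists, which run no higher than 0.35 and -0.02, while TWF1 and ADAMTS20 lie within theirs.

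The libraries held 19838682 to 31192630 reads, of which protein-coding rows took 27.5% to 50.8% in the control clone and 26.3% to 47.5% in the knockout clone. A label calls the cells differentiated, yet all 9 pluripotency markers listed were detected, with a summed level of 39386 to 80781 normalized counts in the control libraries and 34424 to 51151 in the knockout libraries. Of the 6 blood and immune markers, the cells in which IRAK4 is best known, 5 were under 10 normalized counts in both clones, and the summed level was 21.7 to 38.3 and 16.4 to 27.8. The 7 mesendoderm markers summed to 19.9 to 35.7 and 8.85 to 23.3, with TBXT, EOMES, GSC, SOX17, FOXA2 and GATA6 under 10 in both clones. The 6 trophectoderm and amnion markers summed to 104 to 231 and 107 to 209, the 6 neural markers to 1225 to 3220 and 1080 to 1544, and the 7 fibroblast markers to 3239 to 5814 and 2884 to 4510. Among these, CDX2, GATA3, TFAP2A, HAND1, ISL1, SOX1, NEUROD1, COL3A1, LUM and POSTN were under 10 in both clones. The other listed markers of these groups averaged 10 or more in the control clone, the knockout clone or both. They are KRT7, PAX6, NES, DCX, TUBB3, COL1A1, COL1A2, DCN and THY1. The part of other cells in the results was not tested. A smaller part of cells with a transcript and less of it per cell cannot be told apart in such bulk RNA.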

How the data were processed

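The submitters' processing notes name fastp, kallisto, DESeq2 and hg38, without versions or roles. The deposited signal of each library is a gene count that the authors divided by 1 size factor (normalized count). Within a tolerance of 1e-06, 100% of values gave whole numbers when divided by the library's smallest nonzero value. These whole numbers are called reads here. Whether they were counted, or estimated and rounded, is not given, and the intervals above leave out any such error. The authors' log2 fold changes with their standard errors, test score and p-values stand in the same deposited table. Only the log2 fold changes, their standard errors and the marks named above are used here.

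Limma 3.58.1 (R 4.3.3) was fitted to log2(normalized count + 1) with a mean-variance trend and the group as its only term, over 27777 rows that passed edgeR's filterByExpr (minimum count 10), with Benjamini-Hochberg adjustment and a threshold of 0.05. Alternatives were pseudocounts of 0.5 and 5, no filter, quantile normalization, edgeR 4.0.16 (quasi-likelihood, 151 rows called) and DESeq2 1.42.0 on recovered reads, the replicate block and each library left out. The pairing comes from the labels, where the replicate number is the value of a batch tag. For pairs 1 to 4, the correlation of deviations was 0.06, 0.01, 0.28 and 0.36. Between libraries of unlike number it ran from -0.33 (control 3 with knockout 4) to 0.24 (control 4 with knockout 5). Knockout 5 has no partner. The fit was tested on simulated data.

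Positions came from GENCODE 29, matched on Ensembl IDs without version for 58337 rows. Members and lists were chosen with earlier results of these data known. Named genes were the 5 members, coding genes within 1 Mb and called rows within 2 Mb, per list those called or else those of smallest p and highest mean, and the rows most correlated with PUS7L, IRAK4 and TWF1. One row named by this rule is not reported here.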

Additional observations from a re-analysis of the deposited data

Results flagged for a closer look

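Among 52 groups of libraries checked for a library far from the others (26 genes in 2 clones), 4 were found, and chance alone gives about 1 in 20. RP11-210N13.1 stood at 7.23 normalized counts in control 4 and at 0 in the other control libraries. UBE2V1 stood at 2408 in knockout 3, against 1912 to 2049 in the other knockout libraries, and UBE2N at 2103 in the same library, against 1059 to 1305. NOP10 stood at 4788 in control 3, against 1855 to 2303 in the other control libraries.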

How the results depend on the processing

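PUS7L, IRAK4, TMEM117 and ADAMTS20 kept the sign of their log2 fold change in all 16 alternatives, and TWF1 in 13. The 16 are not separate checks of these values. Without the filter the members' log2 fold changes are those of the main fit. With the replicate block they are those of the fit without knockout 5, which has no partner. With 1 library left out, PUS7L ran from 3.91 to 4.51, IRAK4 from 4.45 to 4.82, TWF1 from -0.21 to 0.06, TMEM117 from -0.37 to -0.15 and ADAMTS20 from 0.06 to 0.54. IRAK4 was 3.49 with a pseudocount of 5, which by construction weighs most on genes with few reads, and 4.94 with DESeq2. The count over all rows was 593 with DESeq2, 43 with the replicate block, and 79 (without knockout 4) to 186 (without control 4) with 1 library left out. Leaving out control 1, 2 or 3 gave 93, 80 and 94, and leaving out knockout 2 or 5 gave 95 and 80. The cause was not tested. Neighbours called numbered 2 with DESeq2 and 2 in a window of 5 Mb, where SLC38A4 was lower (log2 fold change -1.44, limma adjusted p = 0.0028). In the ADAMTS list 3 were called with DESeq2, and 0 to 1 with 1 library left out (1 without knockout 1). One head-to-head pair was called with DESeq2, an alternative chosen after seeing the data. With the replicate block PUS7L was 4.18, IRAK4 4.67, ADAMTS20 0.26, TMEM117 -0.35 and TWF1 -0.00. The block changed no other call of a named gene or list. RP11-210N13.1 stood at 6.35 with the block and at 6.03 to 7.05 with 1 library left out. As it passed the filter only through the knockout libraries, nothing is read from its calls. Depth limits IRAK4 in the control clone, with 1 to 5 reads a library.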
